A study of Homo sapiens with 6 samples.

Results

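The collagen, laminin and integrin genes of the deposited gene table were described together with the other large matrix proteins they work with. Members were the protein-coding rows whose symbol has the form of a collagen chain (COL, a number, A, a number), a laminin chain (LAMA, LAMB or LAMC and a digit) or an integrin gene (ITGA or ITGB and its suffix), plus FN1, VTN, TNC, THBS1, SPARC, NID1, NID2, HSPG2 and AGRN. This gave 67 of the 15897 listed genes (13617 of them protein-coding), with 28 collagen genes, 10 laminin genes, 21 integrin-named genes and 8 of the singly named genes, as VTN had no row among the genes analysed here. The rule used names only and no measured value. RNA of 6 libraries labelled as the lung adenocarcinoma line H1650 was sequenced, 3 labelled control with a wild type genotype and 3 labelled shSETD2, which carry a short hairpin RNA against the histone methyltransferase gene SETD2. Per the methods of the study, hairpins were delivered by lentivirus and the cells were grown in RPMI-1640 medium. 3 hairpin constructs are described there, and neither those methods nor the labels say which construct each library carries, whether the control cells carry a hairpin vector, or whether the libraries of a group come from separate cultures. All p-values therefore measure the spread between these libraries, which may be technical.

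Basement membranes are thin matrix sheets under epithelia, in the lung under both the airways and the alveoli. Laminins, secreted trimers of an α, a β and a γ chain, assemble on the cell surface, and collagen IV, also a trimer, forms a covalent network beside them that nidogens, perlecan and agrin link to the laminins. Integrins are receptors made of an α and a β subunit, and they tie this matrix through talin and other adaptors to the actin or keratin skeleton. Fibrillar collagens, collagen VI and fibronectin belong mainly to the interstitial matrix of connective tissue.

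Groups are called here by their labels, because SETD2 itself did not separate them. SETD2 stood at 18.0, 10.2 and 17.6 FPKM (fragments of a gene scaled to its length and to the number mapped in the library) in control libraries 1 to 3 and at 8.97, 8.09 and 12.2 FPKM in shSETD2 libraries 1 to 3. The groups overlapped, and the log2 fold change of -0.58 ± 0.24 (SE) had an adjusted p of 0.0641 (limma). Without control replicate 2 it was -0.83 with an adjusted p of 0.00666, and without shSETD2 replicate 3 it was -0.73 with an adjusted p of 0.042, while leaving out any of the other libraries gave -0.45 to -0.53 (adjusted p of 0.149 to 0.181). Median ratio scaling gave -0.25 with an adjusted p of 0.377. Libraries of the same group correlated over genes with Pearson's r of 0.982 to 0.990, and libraries of different groups with r of 0.701 to 0.707. Lung epithelial markers were sparse in both groups: 4 of 16 were listed, with sums of 17.2 to 18.9 FPKM in the control and 9.80 to 10.2 FPKM in the shSETD2 libraries. ABCA3 made up most of both sums (means of 13.5 and 8.32 FPKM). Of the 4, 3 were called lower and LAMP3 higher (means of 0.584 and 1.23 FPKM). NKX2-1, the defining transcription factor of lung epithelium, was at 1.44 to 1.80 FPKM in the control libraries and listed at 0 in every shSETD2 library. General epithelial markers (11 of 15 listed) summed to 16.7 to 18.0 FPKM in the control and 406 to 459 FPKM in the shSETD2 libraries, carried by KRT7, KRT8 and KRT18. The other epithelial markers went both ways, and of the 6 epithelial markers tested 4 were higher and 2 lower. Means in control and shSETD2 were 1.27 and 0.012 FPKM for CDH1 and 1.93 and 0.0219 FPKM for ESRP2 (both called lower). For ELF3, called higher, they were 0.221 and 4.23 FPKM. Among markers too low to be tested, EPCAM had means of 0.710 and 0.220 FPKM and ESRP1 of 0.0176 and 0.803 FPKM. Of 14 markers of renal lineage and embryonic kidney lines all were listed, with sums of 106 to 112 and 72.9 to 84.0 FPKM. Among them LIN28B was at 20.7 to 22.3 FPKM in the control libraries and listed at 0 in every shSETD2 library, whereas PAX8 was at no more than 0.037 FPKM in the control and at 28.1 to 35.2 FPKM in the shSETD2 libraries. Fibroblast markers (6 of 12 listed) summed to 73.3 to 91.6 and 130.2 to 139 FPKM. VIM alone carried that rise (means of 66.5 and 132 FPKM), while ACTA2 fell (4.43 and 1.12 FPKM) and TWIST1 went from 7.34 to 8.37 FPKM to 0. Endothelial markers (2 of 8) summed to 6.49 to 7.59 and 50.1 to 57.3 FPKM. ESAM carried most of that rise (means of 0.414 and 45.5 FPKM), while EGFL7 had means of 6.68 and 8.85 FPKM. Blood cell markers (2 of 8) summed to 1.33 to 1.62 and 1.91 to 2.24 FPKM. These lists move with the groups as the matrix genes do, and their part in the results was not tested. A difference in cell identity and an effect of the hairpin cannot be told apart in this design.

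Of the 67 members, 57 passed the filter of a mean of at least 0.5 FPKM over the 6 libraries and were tested, with COL24A1 (0.501) and COL5A2 (0.510) just inside and ITGBL1 (0.380) and COL3A1 (0.374) just outside. At an adjusted p under 0.05 (limma on log2(FPKM + 1), adjusted over all 14068 genes tested), 25 members had more RNA and 29 had less in the libraries labelled shSETD2, and 3 (ITGA2, ITGB1BP1 and LAMC1) were not called. Over all genes tested 78.6% were called, 26.8% higher and 51.8% lower, so the 54 called members stand against a background in which most genes were called. The 6 values separated the groups completely for 54 members, against 80.9% of all genes, 25 of them upward against 27.9% and 29 downward against 53%. The members stood out from the background more in size than in number. A change of more than 5-fold on the FPKM + 1 scale was seen upward in 10 members, among them LAMB3, ITGA3, THBS1, ITGB3, TNC, ITGA6, ITGB1, AGRN and LAMA5, against 3.26% of all genes, and downward in 5 (NID2, COL6A1, COL2A1, SPARC and COL25A1), against 2.29%. NID2, COL2A1 and COL25A1 were listed at 0 in every shSETD2 library and SPARC in 1. The added 1 FPKM limits the size of their changes, which were larger with a smaller added value. It also keeps members with low values out of both counts. Downward, LAMA1 was left out although its control mean was 62.9 times its shSETD2 mean. Upward, COL12A1 was left out although its shSETD2 mean was 9.63 times its control mean.

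Counts by class are given as a description, since the classes were not tested against each other. Of 20 collagen genes tested 7 were higher and 13 lower (median log2 fold change -0.91), of 10 laminin genes 5 were higher and 4 lower (median 0.28), of 16 integrin subunit genes 9 were higher and 6 lower (median 0.75), and of the 8 other matrix genes 4 were higher and 4 lower (median -0.07). Several genes called lower, such as COL14A1, COL23A1, COL24A1, COL26A1, LAMA4, LAMC3, ITGA8 and ITGA9, passed the filter only through the control libraries. Among the genes called higher, LAMB3, THBS1, ITGB3 and ITGB4 passed it only through the shSETD2 libraries. The counts of lower and of higher genes are therefore partly set by the filter. With a mean of at least 5 FPKM, 20 members were higher and 4 lower. Among the collagen genes at that level COL4A1, COL4A2, COL6A2 and COL18A1 were higher and COL4A5 and COL6A1 lower. The median over all 14068 genes tested was -0.29. After scaling each library by its median ratio, which moved that median to -0.01, 37.7% of all genes were higher and 38.3% lower, and the members 27 and 28, with collagen genes still at 7 and 13, laminin genes at 6 and 4 and integrin-named genes at 10 and 7. 3 members changed their call with that scaling. LAMC1 (0.37, adjusted p = 0.000144) and ITGB1BP1 (0.22, adjusted p = 0.0303) became higher, and ITGAE (-0.09, adjusted p = 0.447) was no longer called lower. A further difference lay in genes listed at 0: 10 of the 67 members (COL2A1, COL14A1, COL15A1, COL23A1, COL25A1, COL26A1, LAMA4, LAMC3, ITGA8 and NID2) were at 0 in every shSETD2 library and above 0 in the control, against 4.57% of all listed genes, and 0 members showed the reverse, against 1.75%.

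**Figure D1:**
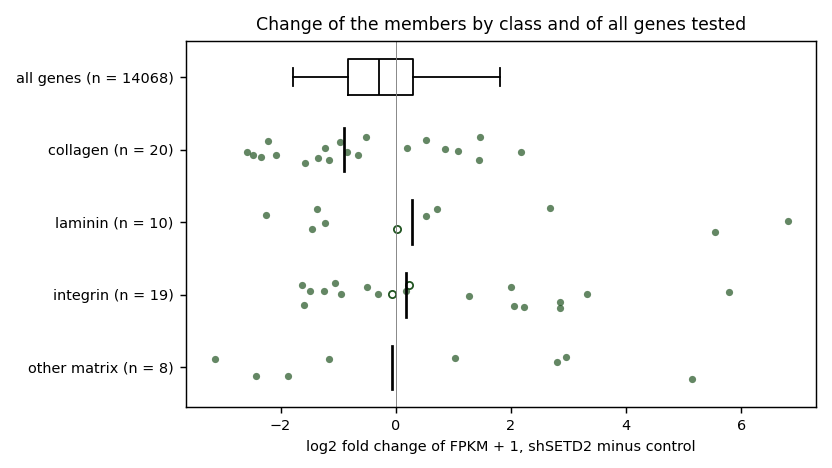
Log2 fold change of FPKM + 1 (shSETD2 minus control, x axis) of each tested member by class, with filled points for members called at an adjusted p under 0.05, open points for the others and a black bar at the class median; the box above shows the median, quartiles and the 5th and 95th percentiles of all 14068 genes tested. Collagen genes sit mostly left of 0 (median -0.91), while laminin and integrin genes reach up to 6.80 and 5.78. Several genes left of 0 passed the filter only through the control libraries, and some right of 0 only through the shSETD2 libraries.

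Laminins showed the widest range. The β3 chain gene LAMB3 (chr1:209788215-209825811, minus strand, GRCh37), whose product pairs with the α3 chain in the laminin that anchors epithelia, was at 0.0231, 0.066 and 0.134 FPKM in the control libraries and at 116, 116 and 124 FPKM with shSETD2. The log2 fold change of LAMB3, 6.80 ± 0.06 (SE, adjusted p = 5.41e-09), was the largest among the members. The gene went from near absence to the highest laminin chain in every shSETD2 library. LAMA3 (chr18:21269407-21535030, plus strand), which encodes that α3 chain, moved the opposite way, from 5.17, 5.39 and 5.31 FPKM to 1.34, 1.15 and 1.40 FPKM (-1.46 ± 0.06, adjusted p = 2.10e-06). The level of LAMB3 over LAMA3 was thus 0.00446 to 0.0252 in the control and 86.7 to 102 in the shSETD2 libraries, so that the α3 chain had the more abundant RNA in the control and the β3 chain in the shSETD2 group. LAMA3 has a second start inside the gene for a shorter α3 form, and the gene level used here does not separate the forms.

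The bases just upstream of both chain genes are shown because chains of 1 trimer changed in opposite directions. Each run is 250 bases before the start of the canonical transcript (GENCODE v44lift37, sequence of GRCh37), 5′ to 3′ on the gene's own strand, and capitals mark matches on either strand to any of 6 motifs. They were the palindromic motif of the AP-1 factors JUN and FOS (TGANTCA), the motif of the SP family called a GC box (GGGCGG), the core promoter motif near which transcription starts, called a TATA box (TATAAA), the motif of the Hippo pathway factors of the TEAD family (GGAATG), the motif of the inflammatory factor NF-kB (GGGNNTTCC) and the E-box bound by the repressors of the SNAI and ZEB families (CAGGTG). The windows are chr1:209825771-209826020 (minus strand) and chr18:21269167-21269416 (plus).
LAMB3: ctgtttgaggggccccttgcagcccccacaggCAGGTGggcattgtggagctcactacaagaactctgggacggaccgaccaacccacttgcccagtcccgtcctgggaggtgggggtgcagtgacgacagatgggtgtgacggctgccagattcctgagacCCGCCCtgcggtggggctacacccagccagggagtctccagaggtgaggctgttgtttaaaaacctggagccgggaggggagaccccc
LAMA3: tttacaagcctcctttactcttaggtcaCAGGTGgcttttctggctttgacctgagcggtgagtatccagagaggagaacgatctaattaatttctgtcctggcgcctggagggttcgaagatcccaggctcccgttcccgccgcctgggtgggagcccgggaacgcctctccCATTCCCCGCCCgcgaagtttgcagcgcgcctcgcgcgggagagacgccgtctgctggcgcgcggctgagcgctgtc
Both windows hold 1 GC box and 1 E-box, which occur in 59.2% and 17.4% of 19862 protein-coding promoters of this length, and the LAMA3 window, which belongs to the longer form, also holds a TEAD match at -77 to -72 (9.83%). The AP-1 letters, in 4.7% of all promoters, are in neither window. A match is a description of letters and no measured binding.

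The remaining α chains split. LAMA5, the α chain of most adult epithelial basement membranes, rose from 7.55, 6.97 and 7.2 FPKM to 55.2, 47.4 and 53.2 FPKM (log2 fold change 2.68 ± 0.07, adjusted p = 2.08e-07). LAMA1, an α chain of early embryonic basement membranes, fell from 4.18, 4.14 and 3.94 FPKM to 0.0521, 0.0938 and 0.0489 FPKM (-2.26 ± 0.05, adjusted p = 1.83e-07). LAMA4, the α chain of vascular and muscle basement membranes, was at 1.36, 1.40 and 1.26 FPKM in the control libraries and listed at 0 in all 3 shSETD2 libraries. 1 of 4 α chain genes was therefore higher and 3 were lower. The α chain RNA of the control libraries was spread over LAMA5 (38.9% to 41.3% of the summed FPKM of α chains), LAMA3 (28.3% to 30.1%), LAMA1 (22.2% to 23.1%) and LAMA4 (7.10% to 7.80%), and that of the shSETD2 libraries was almost all LAMA5 (97.4% to 97.5%).

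The widely used β1, β2 and γ1 chains moved less. LAMB1 was at 11.2, 11.9 and 12.6 FPKM against 20.5, 19.7 and 20.4 FPKM (0.72 ± 0.05, adjusted p = 2.88e-05), and LAMB2 at 14.5, 14.1 and 14.1 FPKM against 22.2, 20.1 and 20.8 FPKM (0.53 ± 0.05, adjusted p = 6.95e-05). LAMC1, the γ chain of most laminins, was at 37.4, 35.1 and 36.1 FPKM against 37, 36.6 and 37.1 FPKM, and the groups overlapped (0.03 ± 0.04, adjusted p = 0.515). The direction of LAMC1 depends on scaling, as quantile normalization gave -0.23 (adjusted p = 0.00104) and upper quartile scaling 0.11 (adjusted p = 0.0363). LAMC3 was at 1.59, 1.5 and 1.67 FPKM in the control and listed at 0 in every shSETD2 library. LAMB3 thereby went from 0.0899% to 0.498% of the summed β chain FPKM in the control to 73.2% to 75.1% in the shSETD2 libraries. Summed over the 10 chains, laminin RNA was 80.7 to 83.1 FPKM in the control and 297 to 314 FPKM in the shSETD2 libraries. An exact two-sided permutation test of 3 against 3 libraries cannot go below p = 0.1, the value obtained for each of these shares and sums, so they rest on the separation of the libraries alone.

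**Figure D2:**
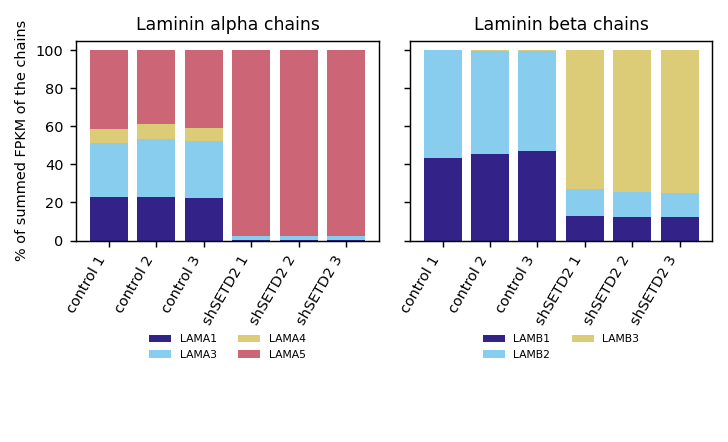
Percent of the summed FPKM of the laminin α and β chain genes (y axis) that each chain gene takes in each of the 6 libraries (x axis). LAMA5 fills 97.4% to 97.5% of the α panel and LAMB3 73.2% to 75.1% of the β panel in the shSETD2 libraries, while LAMB3 is under 1% in the control libraries.

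Linkers of the basement membrane were also reordered. Nidogen-1 (NID1), which bridges laminin γ1 and collagen IV, was at 36.6, 36.4 and 55.5 FPKM in the control and 10.4, 10.7 and 11.1 FPKM in the shSETD2 libraries (-1.88 ± 0.16, adjusted p = 5.57e-05), with control library 3 above its group but all 3 control values above the shSETD2 values. NID2, its paralog, was at 7.97, 7.71 and 7.84 FPKM and listed at 0 in every shSETD2 library. Perlecan (HSPG2), a heparan sulfate proteoglycan, fell from 3.00, 2.99 and 2.96 FPKM to 0.860, 0.694 and 0.789 FPKM (-1.16 ± 0.06, adjusted p = 4.16e-06). Agrin (AGRN), also a heparan sulfate proteoglycan, rose from 9.69, 7.78 and 8.66 FPKM to 69.9, 60.1 and 68.7 FPKM (2.79 ± 0.09, adjusted p = 6.58e-07). Of the 4 linkers, 3 were thus lower and agrin alone higher. Exons of NID2 share 1083 bases with the opposite-strand gene C14orf166, and those of AGRN 402 bases with AL645608.6 on the same strand. The share of fragments this moved between the genes was not tested.

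Adhesive and matricellular proteins, which modulate the contact between cells and matrix, moved mostly upward. Thrombospondin-1 (THBS1) was at 0.0849, 0.0617 and 0.0564 FPKM in the control and at 35.5, 37.3 and 37.1 FPKM in the shSETD2 libraries (5.14 ± 0.05, adjusted p = 7.05e-09). Tenascin-C (TNC) rose from 0.598, 0.551 and 0.518 FPKM to 10.9, 11.1 and 11 FPKM (2.95 ± 0.05, adjusted p = 5.23e-08). Fibronectin (FN1) rose less, from 6.17, 6.43 and 6.52 FPKM to 14.5, 13.5 and 14.0 FPKM (1.03 ± 0.05, adjusted p = 2.92e-06). SPARC, a collagen-binding matricellular protein, went the other way, from 4.44, 4.38 and 4.57 FPKM to 0.0528, 0 and 0.0147 FPKM. In bulk RNA such as this, fewer cells that express a gene and less RNA per cell cannot be told apart.

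**Figure D3:**
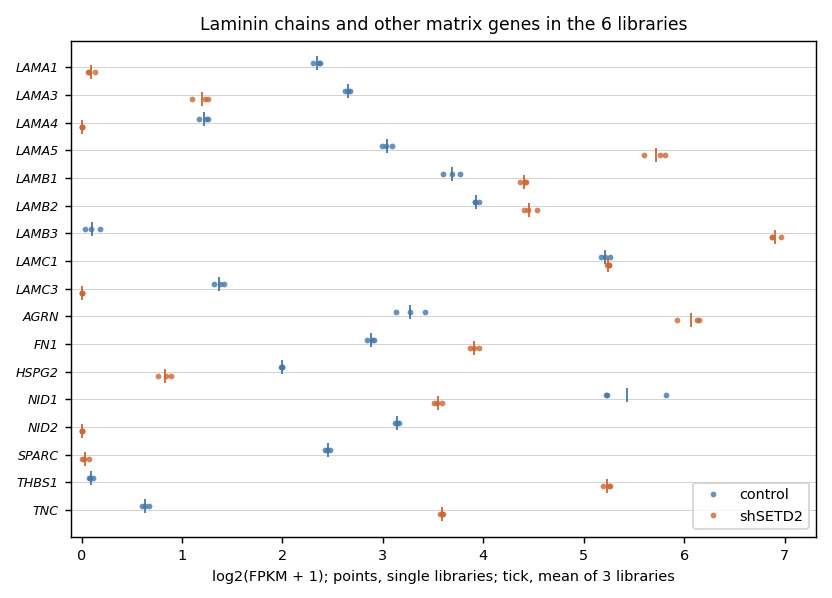
Log2(FPKM + 1) (x axis) of 9 laminin chain genes and the other matrix genes (y axis) in the 3 control and 3 shSETD2 libraries, with a point for each library and a tick at the group mean. LAMB3 and THBS1 sit near 0 in the control libraries and above 5 in the shSETD2 libraries, NID2, LAMA4 and LAMC3 are at 0 in the shSETD2 libraries, and the points of LAMC1 overlap.

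The collagen chain with the most RNA in the control, COL6A1, fell from 21.1% to 22.0% of collagen FPKM to 2.48% to 2.60%, the shares of fibrillar and transmembrane chains fell as well, and those of COL4A1, COL4A2 and COL18A1 rose. Summed over the 28 genes it changed less, from 113 to 116 FPKM in the control to 126 to 133 FPKM in the shSETD2 libraries, but 17 or 18 collagen genes had at least 1 FPKM in a control library and 9 in each shSETD2 library. COL4A1, which encodes the α1 chain of collagen IV, was at 6.85, 7.01 and 6.27 FPKM and at 20.7, 19.7 and 20.2 FPKM (1.46 ± 0.05, adjusted p = 1.04e-06). COL4A2, the α2 chain of the same trimer, was at 12.9, 12.4 and 13.0 FPKM and at 37.2, 35.0 and 37.7 FPKM (1.45 ± 0.04, adjusted p = 5.20e-07). The pair rose by nearly the same amount, and the ratio of COL4A2 over COL4A1 overlapped between groups (1.78 to 2.08 in the control and 1.78 to 1.87 in the shSETD2 libraries, exact permutation p = 0.5, 3 against 3 libraries). Together they made up 16.8% to 17.4% of collagen FPKM in the control and 43.3% to 43.7% in the shSETD2 libraries.

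These 2 genes lie head to head on chromosome 13, with 127 bases between the starts of their canonical transcripts, and the 126 bases between them (chr13:110959505-110959630, GRCh37, plus strand, on which COL4A2 is read) are shown because the pair moved together. Capitals mark the only match to the motifs above, a GC box at bases 62 to 67 of this run.
COL4A1-COL4A2: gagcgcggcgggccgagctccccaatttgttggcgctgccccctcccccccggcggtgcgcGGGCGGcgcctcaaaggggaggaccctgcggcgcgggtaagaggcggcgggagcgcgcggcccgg

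Other collagen IV genes did not follow that pair. COL4A6 and COL4A5 on chromosome X are head to head as well, with 1416 bases between the starts, and both were lower: COL4A6 fell from 4.38, 3.99 and 4.34 FPKM to 0.231, 0.288 and 0.201 FPKM (-2.08 ± 0.06, adjusted p = 4.25e-07). COL4A5 fell less, from 6.56, 6.23 and 6.29 FPKM to 4.12, 4.48 and 3.81 FPKM (-0.52 ± 0.06, adjusted p = 0.000319), and the ratio of COL4A5 over COL4A6 was 1.45 to 1.56 in the control and 15.6 to 19.0 in the shSETD2 libraries. The 2 genes of that pair therefore shared a direction but not a size. COL4A3 and COL4A4, another such pair (419 bases), are the partners of COL4A5 in the network of the kidney filter and the alveolus. Both were too low to be tested, with no value above 0.677 FPKM. COL4A4 was at 0.618 to 0.677 FPKM in the control and at 0.0108 to 0.0545 FPKM in the shSETD2 libraries. COL4A3 was at 0.202 to 0.250 FPKM in the control and at no more than 0.00774 FPKM in the shSETD2 libraries.

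Collagen VI, a beaded filament of the pericellular matrix, split between its chains as did the α3 and β3 laminin chains. COL6A1 was at 24.9, 24.4 and 24.9 FPKM in the control, the highest collagen level there, and at 3.44, 3.12 and 3.36 FPKM in the shSETD2 libraries (-2.58 ± 0.05, adjusted p = 6.52e-08). COL6A2 rose from 15.6, 16.7 and 16.9 FPKM to 24.3, 23.0 and 24.8 FPKM (0.53 ± 0.05, adjusted p = 9.64e-05). The ratio of COL6A1 over COL6A2 went from 1.46 to 1.60 in the control to 0.135 to 0.141 in the shSETD2 libraries. The genes stand in tandem on chromosome 21 with 116342 bases between the starts, and COL6A3, the remaining chain of the classic trimer, had no row among the genes analysed here. The 250 bases upstream of the COL6A2 start are shown because this gene rose while its neighbour fell, with motif matches in capitals (chr21:47517776-47518025, GRCh37, plus strand).
COL6A2: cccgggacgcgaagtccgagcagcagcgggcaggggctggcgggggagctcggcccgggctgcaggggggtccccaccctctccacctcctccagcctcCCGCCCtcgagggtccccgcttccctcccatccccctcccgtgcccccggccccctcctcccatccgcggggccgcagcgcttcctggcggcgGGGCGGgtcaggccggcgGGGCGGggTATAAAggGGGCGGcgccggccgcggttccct
The window holds 4 GC boxes and the TATA box letters at -32 to -27 (9.26% of all promoters).

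Fibrillar collagens, which build the load-bearing fibrils of connective tissue, were low throughout and mostly lower in the shSETD2 group, with 5 of 6 tested genes lower and 1 (COL27A1) higher. COL1A1 fell from 2.81, 3.01 and 2.53 FPKM to 0.283, 0.213 and 0.311 FPKM (-1.57 ± 0.07, adjusted p = 2.59e-06). COL5A1 was at 3.42, 3.85 and 3.70 FPKM in the control, and in the shSETD2 libraries it was listed at 0 except for 0.00518 FPKM in library 2. COL2A1, the cartilage collagen, was at 4.01, 5.24 and 4.49 FPKM in the control and listed at 0 in every shSETD2 library. Fibrillar chains together fell from 13.5% to 14.9% of collagen FPKM in the control to 2.52% to 2.71%. COL27A1 was the exception, at 2.27 to 2.50 FPKM against 2.78 to 3.09 FPKM (0.20 ± 0.06, adjusted p = 0.0209). COL1A2, whose product joins that of COL1A1 in collagen I, had no row among the genes analysed here.

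The multiplexin, anchoring fibril and fibril-associated collagens, which border basement membranes or fibril surfaces, went both ways. Of the 4 of these genes tested, COL18A1, COL7A1 and COL12A1 were higher and COL14A1 was lower, at 1.12, 1.53 and 1.39 FPKM in the control and listed at 0 in every shSETD2 library. The 5 that were too low to be tested (COL9A2, COL9A3, COL15A1, COL16A1 and COL19A1) had lower means in the shSETD2 group, with overlapping values for COL16A1. COL18A1, the source of endostatin and a basement membrane zone proteoglycan, rose from 12.1, 12.1 and 13.2 FPKM to 27.6, 26.4 and 28.3 FPKM (1.08 ± 0.05, adjusted p = 3.55e-06). Its exons share 1156 bases with SLC19A1 on the opposite strand. COL7A1, which forms the anchoring fibrils that hold the epithelial basement membrane to the dermis, rose from 2.05, 1.71 and 1.70 FPKM to 4.45, 3.92 and 3.98 FPKM (0.86 ± 0.08, adjusted p = 6.09e-05). COL12A1, a collagen on the surface of fibrils, rose from 0.688, 0.710 and 0.673 FPKM to 6.55, 6.78 and 6.60 FPKM (2.18 ± 0.05, adjusted p = 1.44e-07), the largest rise among collagen genes. The 3 transmembrane collagen genes tested were all lower, against 51.8% of all genes, and all 3 passed the filter only through the control libraries. COL25A1 was at 4.78, 4.87 and 2.82 FPKM in the control, control library 3 well under the others, and listed at 0 in every shSETD2 library.

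**Figure D4:**
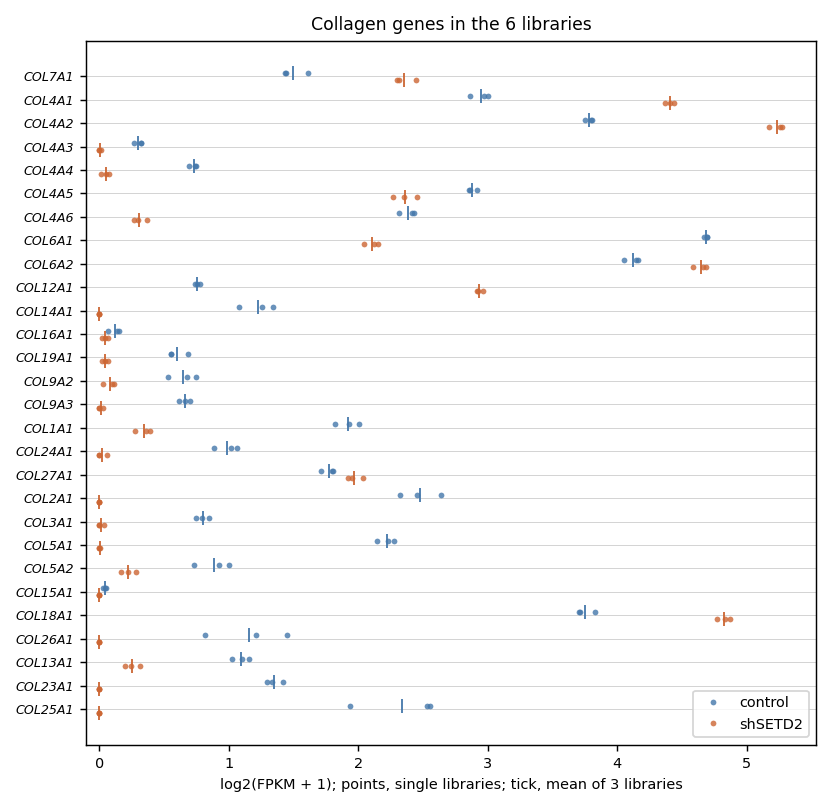
Log2(FPKM + 1) (x axis) of the 28 collagen genes (y axis) in the 3 control and 3 shSETD2 libraries, with a point for each library and a tick at the group mean. COL4A1, COL4A2, COL18A1, COL6A2 and COL12A1 lie to the right in the shSETD2 libraries, COL6A1 lies to the left, and the fibrillar genes COL1A1, COL2A1 and COL5A1 are near 0 or at 0 there.

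Integrin subunit RNA was higher in the shSETD2 libraries by a wide margin. The 17 integrin subunit genes listed summed to 58.3 to 60.1 FPKM in the control and 435 to 443 FPKM in the shSETD2 libraries. Fewer of these genes carried the larger sum, as 12 or 13 had at least 1 FPKM in a control library and 10 in each shSETD2 library. The 4 β subunit genes tested were all higher, against 26.8% of all genes, also under each scaling tried. Among them ITGB3 and ITGB4 passed the filter only through the shSETD2 libraries. ITGB1, the common partner of most α subunits, rose from 23.2, 21.5 and 19.9 FPKM to 153, 156 and 174 FPKM (2.84 ± 0.07, adjusted p = 2.33e-07). ITGB3, which pairs with αV and with the platelet subunit αIIb, rose from 0.501, 0.277 and 0.416 FPKM to 12.7, 13.7 and 12.7 FPKM (3.33 ± 0.08, adjusted p = 1.56e-07). ITGB5, another partner of αV, rose from 3.90, 4.01 and 4.05 FPKM to 22.7, 22.1 and 22.3 FPKM (2.23 ± 0.04, adjusted p = 6.69e-08). ITGB4, the keratin-linked partner of α6 in hemidesmosomes, stayed far under these, at 0.355, 0.437 and 0.474 FPKM against 2.78, 2.24 and 2.33 FPKM (1.28 ± 0.08, adjusted p = 1.12e-05). ITGB1 held 79.8% to 82.8% of the β subunit FPKM in the control and 80.0% to 82.2% in the shSETD2 libraries, ranges that overlap.

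Laminin-binding α subunits included the largest integrin change. ITGA3, whose product pairs with β1 and binds laminins with α3 or α5 chains, was at 1.45, 1.28 and 1.54 FPKM in the control and at 138, 127 and 130.2 FPKM in the shSETD2 libraries (5.78 ± 0.06, adjusted p = 9.21e-09), 92.6 times the control mean. ITGA6, the α6 subunit that pairs with β1 or β4, rose from 4.19, 4.51 and 6.02 FPKM to 41.4, 40.8 and 42 FPKM (2.86 ± 0.11, adjusted p = 1.45e-06). ITGA7, the muscle laminin receptor, fell from 2.47, 2.77 and 2.15 FPKM to 0.102, 0.0877 and 0.162 FPKM (-1.63 ± 0.08, adjusted p = 4.18e-06). ITGA3 thus grew from 4.0% to 4.53% of the α subunit FPKM in the control to 52.7% to 56.3% in the shSETD2 libraries. ITGA6 kept a share of 13.1% to 17.3% in the control and 16.8% to 18.2% in the shSETD2 libraries, which overlap.

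Receptors for the RGD motif of fibronectin and related ligands divided into 2 that rose and 2 that were lower. ITGA5, the fibronectin receptor subunit, rose from 5.17, 5.12 and 5.30 FPKM to 25.1, 23.8 and 25.0 FPKM (2.05 ± 0.04, adjusted p = 1.07e-07). ITGAV rose from 8.42, 7.75 and 7.97 FPKM to 36.5, 44 and 27.1 FPKM (2.00 ± 0.16, adjusted p = 4.25e-05), with a wider spread over the shSETD2 libraries than its β partners. ITGA2B fell from 1.55, 1.52 and 1.44 FPKM to 0.296, 0.345 and 0.256 FPKM (-0.95 ± 0.06, adjusted p = 9.78e-06), and ITGA8, at 1.63, 1.19 and 1.30 FPKM in the control, was listed at 0 in every shSETD2 library. The related subunits α4 and α9, receptors used by leukocytes and migrating cells, were also near absence in the shSETD2 group. ITGA4 was at 1.96, 1.85 and 1.63 FPKM in the control and at 0.00833 FPKM or listed at 0 in the shSETD2 libraries, and ITGA9 at 0.989, 1.09 and 1.15 FPKM and at 0.00404 FPKM or listed at 0.

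The 2 collagen-binding genes had the smallest log2 fold changes among the α subunits tested. ITGA2 was at 2.06, 2.18 and 3.38 FPKM in the control and at 2.59, 2.68 and 4.10 FPKM in the shSETD2 libraries, the groups overlapped, and the log2 fold change of 0.22 ± 0.19 had an adjusted p of 0.321. Quantile normalization gave 0.53 with an adjusted p of 0.0443. ITGA1 was at 0.641, 0.653 and 0.672 FPKM against 0.908, 0.956 and 0.772 FPKM (0.18 ± 0.06, adjusted p = 0.0305), and its exons share 499 bases with PELO, a gene read on the same strand. ITGAE, the αE subunit of intraepithelial lymphocytes, was at 1.48, 2.03 and 2.27 FPKM against 1.30, 1.31 and 1.41 FPKM (-0.31 ± 0.11, adjusted p = 0.0359), the call that median ratio scaling removed. 4 integrin-named genes encode no subunit. ITGB3BP, a centromere protein gene, was the largest of them, at 13.9, 12.0 and 14.0 FPKM against 3.64, 4.29 and 3.22 FPKM (-1.60 ± 0.10, adjusted p = 1.28e-05), ITGB1BP2 was lower, ITGB1BP1 was not called and ITGBL1 was too low to be tested.

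**Figure D5:**
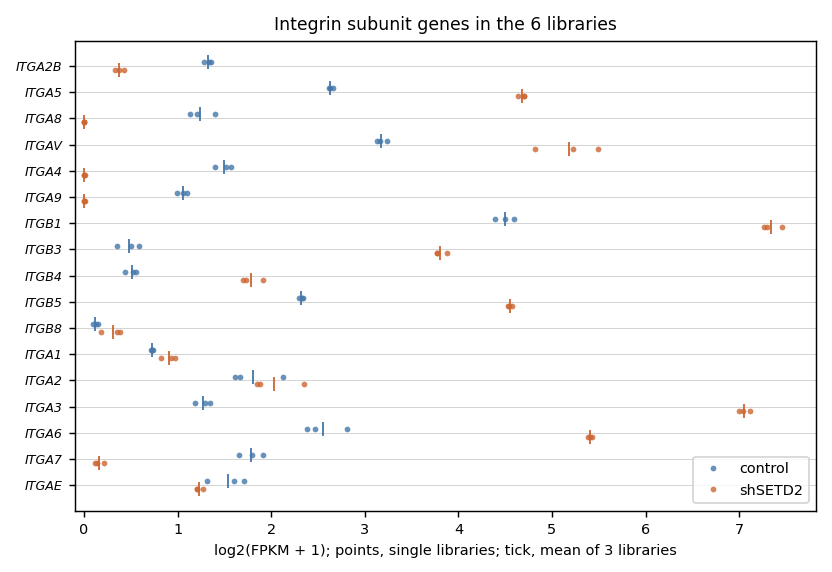
Log2(FPKM + 1) (x axis) of the 17 integrin subunit genes (y axis) in the 3 control and 3 shSETD2 libraries, with a point for each library and a tick at the group mean. ITGA3 moves from under 2 to about 7, ITGB1 is the highest in both groups, ITGA2 overlaps, and ITGA4, ITGA8 and ITGA9 are at or next to 0 in the shSETD2 libraries.

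Receptor subunits and their known ligands were set side by side as a description, with no test of their direction. For the laminin receptor α3β1 both subunit genes rose, as did α5 among its ligand chains, whereas LAMA3 fell. For α6β4 both subunit genes rose, but ITGA6 stood 10.3 to 12.7 times above ITGB4 in the control and 14.9 to 18.2 times above it in the shSETD2 libraries. For the fibronectin receptor α5β1 both subunit genes and FN1 rose. For the vitronectin receptors αVβ3 and αVβ5 all 3 subunit genes rose, and no ligand was compared. For α4β1, another fibronectin receptor, ITGA4 was lower while ITGB1 and FN1 were higher. For the collagen receptor α2β1 only ITGB1 was called. The fibrillar collagens it binds were mostly lower, while of collagen IV COL4A1 and COL4A2 were higher and COL4A5 and COL4A6 lower. The summed FPKM of α over β subunits was 1.14 to 1.39 in the control and 1.09 to 1.29 in the shSETD2 libraries, ranges that overlap (exact permutation p = 0.7, 3 against 3 libraries).

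Genes that make collagen or act beside integrins were counted from lists drawn up by function. Of 24 tested genes of collagen synthesis and crosslinking 10 were higher and 13 lower, against 26.8% and 51.8% of all genes. LOXL2, a lysyl oxidase that crosslinks collagen IV, rose from 3.65, 3.80 and 3.67 FPKM to 50.1, 50.3 and 49.7 FPKM (3.44 ± 0.04, adjusted p = 1.32e-08), and the prolyl hydroxylases P3H2 (2.53 ± 0.09) and P4HA2 (1.54 ± 0.05) rose too. LOX, a lysyl oxidase of fibrillar collagen and elastin, was at 3.23 to 3.39 FPKM in the control and at no more than 0.0341 FPKM in the shSETD2 libraries, LOXL1 was at 2.20 to 2.54 FPKM and listed at 0, and P3H3 was lower (-1.94 ± 0.08).

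Of 24 tested adaptor genes that link integrins to the cytoskeleton 19 were higher and 2 lower, against 26.8% and 51.8% of all genes. Plectin (PLEC), the link to keratin, had a log2 fold change of 3.22 ± 0.05, paxillin (PXN) of 2.86 ± 0.13 and α-actinin-1 (ACTN1) of 2.80 ± 0.06, while talin-2 (TLN2, -1.39 ± 0.08) and KANK1 (-0.43 ± 0.05) were lower. The KANK1 call was lost with quantile normalization (-0.05, adjusted p = 0.39). Of 11 other matrix receptors 4 were higher and 6 lower. Syndecan-4 (SDC4), a heparan sulfate co-receptor of fibronectin, rose from 6.64, 7.54 and 6.39 FPKM to 212 FPKM in each shSETD2 library (4.76 ± 0.06, adjusted p = 2.19e-08). The collagen receptor kinase DDR1, usual in epithelium, was higher (1.96 ± 0.09) and its mesenchymal counterpart DDR2 lower (-0.82 ± 0.05), as were SDC2 (-1.33 ± 0.12) and the laminin receptor BCAM (-0.83 ± 0.06). SDC1 was called higher (1.08 ± 0.37, adjusted p = 0.033) with shSETD2 library 3 at 22.1 FPKM and the other two at 8.70 and 7.58 FPKM. Its call was lost without control replicate 1, 2 or 3 in turn (adjusted p = 0.0776, 0.0953 and 0.0627) and in an ordinary linear model (adjusted p = 0.0978). Without shSETD2 replicate 3 the log2 fold change was 0.64 (adjusted p = 0.00402).

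Promoter letters of the members were counted in the same 250 base windows. A GC box was present in 23 of 25 members called higher (92%) and in 17 of 29 called lower (58.6%), beside 72.1% of the 13366 protein-coding genes of the table with a window. AP-1 letters were present in 3 of 67 member windows (4.48%, against 3.34% of the table's genes), the E-box in 16 (23.9% against 15.4%) and the NF-kB letters in 9 (13.4% against 7.21%). These shares are descriptions, with no test.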

How the data were processed

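RNA of 6 libraries (3 control, 3 shSETD2) was prepared by the authors with a stranded kit. After alignment with HISAT2 to hg19 (GRCh37) the authors ran Ballgown, and FPKM per gene and library was deposited. Tool versions, the annotation used and whether strand entered the quantification are not given in the sources used here. A further deposited table adds the authors' own log2 fold changes and p-values, which were not used. Values did not fall on whole multiples, so the depth is unknown and the error is the spread over 3 libraries.

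FPKM was log2 transformed with a pseudocount of 1, which understates changes of low genes. Genes with a mean of at least 0.5 FPKM over the 6 libraries (14068) were fitted with limma 3.58.1 in R 4.3.3 (lmFit, eBayes with an intensity trend, 2 groups), with Benjamini-Hochberg adjustment over all of them and a threshold of 0.05. Genes with an exact 0 in a library are given by their values, without a printed fold, and enter counts and medians with their fitted value on the log2(FPKM + 1) scale. On simulated data for 14068 genes the fit called 92 of 102 changed genes over 5 FPKM and 9 of 13868 unchanged genes. Changed genes under that level were not scored. The simulation changed few genes, with independent noise and no shift between libraries, whereas 78.6% of the measured genes were called. It therefore checks the code and cannot show how the fit behaves on these data. Sums, shares and ratios were compared with exact two-sided permutation tests.

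Named genes were SETD2, the singly named members, the 6 largest called changes per direction and the 4 highest means in each class, chains of known complexes with at least 1 FPKM in a group, and the 3 largest called changes per direction of each related list. COL27A1, ITGA1 and ITGAE were given values outside this rule, after their values were seen. A few items that met it are not reported here. Members and lists were chosen with earlier results of these data known. Alternatives covered the pseudocount, the filter, scaling, the variance model, a replicate block and each library left out. Sequences and starts came from GRCh37 with GENCODE v44lift37. Python 3.11.15, pandas 2.3.3 and matplotlib 3.10.9 were used.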

Additional observations from a re-analysis of the deposited data

How the results depend on the processing

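Of 64 named genes with a fit, 5 (ITGA2, KANK1, LAMC1, SDC1 and SETD2) changed their call or direction under an alternative, and only LAMC1 changed direction with a call, to -0.23 with quantile normalization. With a mean of at least 5 FPKM, which leaves 25 members tested, 20 members were called higher and 4 lower. Of all 7078 genes tested at that level 2401 were higher and 3246 lower. The median log2 fold change was 2 for these members and -0.135 for these genes. At that level 35 genes of the related lists were called (54 otherwise) and 24 members did not overlap. Leaving out 1 library at a time gave 23 to 25 members higher, 28 to 29 lower, 52 to 57 related genes called and 54 to 55 members that did not overlap. Without the filter 27 members were higher and 35 lower. Without the 4 integrin-named genes that encode no subunit, an alternative chosen after seeing the data, 25 were higher and 27 lower. The libraries share replicate numbers across groups, and the deviations of same-numbered libraries correlated at -0.0237, 0.0177 and -0.00766. No pairing is visible over all genes, but these values cannot tell whether same-numbered libraries were prepared together. With the replicate number as a block 25 members were higher and 29 lower, as without it, and ITGA2 (0.22, adjusted p = 0.0223) and SETD2 (-0.58, adjusted p = 0.0156) were called. Depth is unknown, so values under about 0.1 FPKM and exact zeros have no counting error here, and the folds of LAMB3 and THBS1 depend on such values: their log2 fold changes ranged from 6.75 to 10.7 and from 5.06 to 8.90 over the pseudocounts and other alternatives.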
